A study of Mus musculus with 64 samples.

Results

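The step from common myeloid progenitors (CMP) to megakaryocyte-erythroid progenitors (MEP) was followed in mouse fetal livers without Smarcd2, to ask which genes of the erythroid and megakaryocyte programme still rose there. Its 8 libraries, of 64 in the series, were the 4 CMP and the 4 MEP libraries labelled Smarcd2 -/- (KO), joined into pairs by the number that both titles carry (6, 11, 13 and 15). SMARCD2 (BAF60B) is a subunit of the BAF chromatin remodelling complex, and the series looks at blood progenitors that lack it. The same step in 3 WT pairs and 7 Smarcd2 +/- (HET) pairs served for comparison, and it shares no library with the KO step. All 28 libraries came from C57BL/6 fetuses, with an age of 13/14 dpc in the labels except 1 HET CMP library at 14.5 dpc, and of undetermined sex. Both populations were sorted as CD45+, lineage-negative and Sca-1-negative, with CD34+ and intermediate CD16/32 for CMP and low levels of both for MEP. The gate labels write CD177 where the staining list has CD117 (c-Kit). The lineage antibodies were against B220, CD3, Gr-1 and Ter-119. The labels give the genotype of the fetus and name no Cre or transgene. They do not state that each number is its own fetus, and the p-values therefore cover only how far these pairs differ.

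MEP give rise to red cells and platelets. In the erythroid line GATA1, TAL1 and KLF1 switch on the erythropoietin receptor, the enzymes of heme synthesis, the membrane skeleton and the globins, whereas platelet glycoproteins and granule proteins mark the megakaryocyte line. Fetal liver is the main site of this red cell production before birth. Granulocytes and monocytes come from CMP by the other branch, under PU.1 (Spi1) and C/EBP factors.

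Reads assigned to genes ran from 2474974 to 4903730 in the KO CMP and from 2488720 to 5444515 in the KO MEP libraries, and from 1488328 to 8092644 over all 28. The deposited CMP counts cover 15790 genes and the MEP counts 13050. Of these, 11915 are in both, and 11659 of them passed the filter on low counts. Levels are CPM (read counts scaled to a common library size) after TMM scaling, which sets the bulk of genes equal between libraries. A step is the fitted log2 ratio of MEP over CMP, with its standard error (SE), and a gene is called changed at an adjusted p under 0.05 over all 11659 genes. Smarcd2 (chromosome 11, 106263179 to 106272972, GRCm38) was at 0.598 to 1.47 CPM in the KO CMP and at 0.342 to 1.86 CPM in the KO MEP libraries, against 84.5 to 134 CPM in WT MEP. Cd34, the antigen that separates both gates, stood at 926 to 1087 CPM in KO CMP and at 42.8 to 49.98 CPM in KO MEP.

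Libraries 15 and 8 stand apart. In KO MEP 15 and HET MEP 8 the reads on long transcripts were low relative to short ones: the length index, the median log2 level of genes over 5000 bases minus that of genes under 1500 bases on a centred scale, was -1.92 and -1.74, against -0.46 to 0.60 in the other libraries. Their TMM factors were 0.594 and 0.751. In HET CMP 8 gene models on satellite repeats took 48.7% of the reads, against at most 10.8% elsewhere, and the TMM factor was 0.620. The part of these features in any step was not tested. The totals, the programme counts and some list counts are therefore also given without numbers 8 and 15, a choice made after seeing the data. Other list counts are from the fit of all libraries only.

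**Figure D1:**
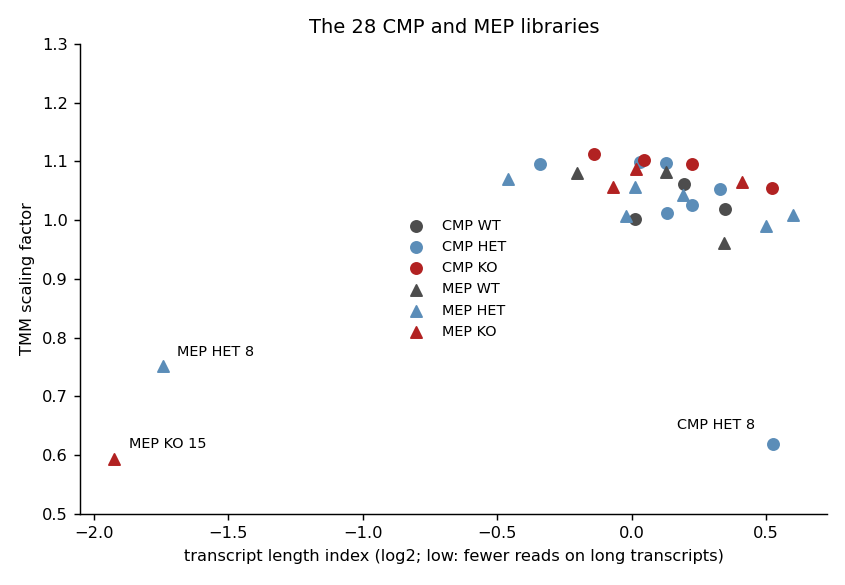
Each point is 1 of the 28 libraries, with the transcript length index on the x axis (log2) and the TMM scaling factor on the y axis (which starts at 0.5); circles are CMP, triangles MEP, and colours give the genotype. MEP KO 15 and MEP HET 8 lie at the lower left, and CMP HET 8 at the lower right.

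In the KO step 751 genes rose from CMP to MEP (6.44% of the genes tested) and 1259 fell (10.8%). Without numbers 8 and 15 the counts were 1623 (14.2%) and 1894 (16.5%) of 11469, and without HET 8 alone the total was 3537 in place of 2010 (17.2%). Each KO pair lies within 1 of the series named in the titles (M32 with number 6, M33 with 11, M34 with 13 and 15); without M34, which among these 28 libraries holds KO only, 869 genes passed. Of 801 genes that rose in the HET step, 449 (56.1%, or 59.8% of the KO rises) also rose in the KO step and 773 (96.5%) had the same sign. Of 299 genes that rose in the WT step, 213 (71.2%, or 28.4% of the KO rises) did. The KO step correlated with the HET step at r = 0.81 (rho = 0.74) and with the WT step at r = 0.76 (rho = 0.63). Only the 11450 genes with a log2 mean CPM of at least 1 over the 28 libraries were used for this. These are correlations across genes, which are not independent replicates, and the table and the scaling are shared.

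**Figure D2:**
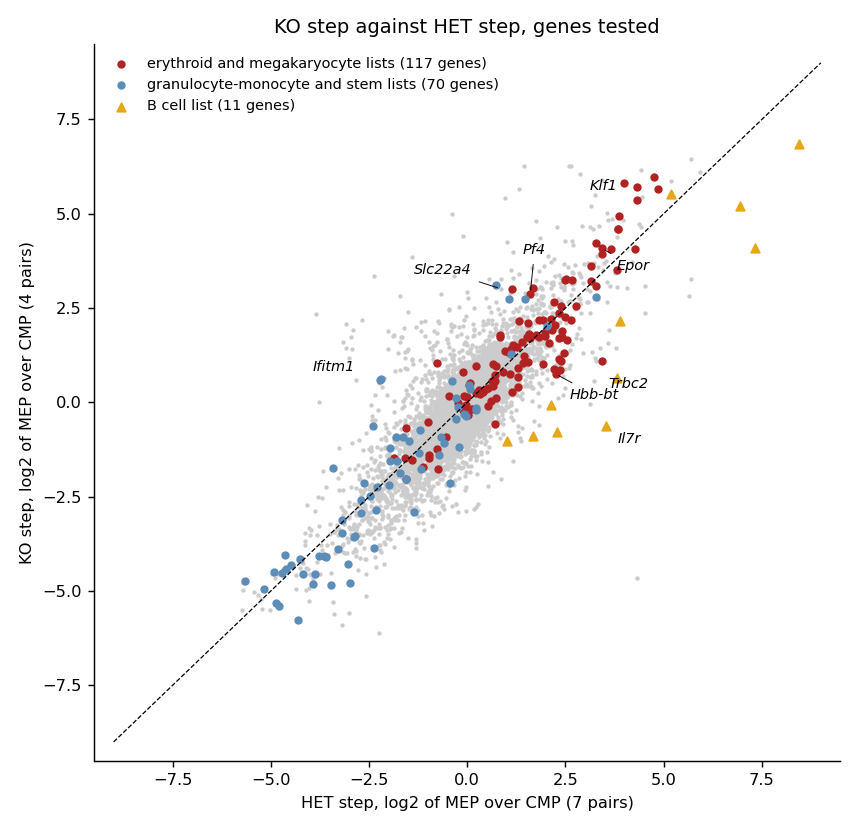
Each point is a gene, with the fitted HET step on the x axis and the KO step on the y axis (log2 of MEP over CMP), and the dashed line marks equal steps; red are the 117 programme genes, blue the granulocyte-monocyte and stem genes and yellow triangles the B cell genes, and Foxd4 lies outside the axes. Klf1, Epor and Pf4 lie above 0 on both axes, while Il7r and Trbc2 lie right of the line and Ifitm1 and Slc22a4 above it.

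Much of the erythroid and megakaryocyte programme rose without Smarcd2. Of 136 genes in 7 lists, 117 were tested, 61 rose in the KO step and 8 fell, against 6.44% and 10.8% of all genes. The median step of the 117 was 1.29 in KO, 1.24 in WT and 1.39 in HET, beside a median over all genes of 0.02, 0.01 and 0.02. Without series M34, with 2 KO pairs left, 39 rose and 5 fell, beside 232 and 637 of all 11763 genes in that fit. Without numbers 8 and 15 it was 69 and 9, beside 14.2% and 16.5% of all genes. In 61 of the 117 every KO MEP library lay above every KO CMP library (10.7% of all genes), and in 11 every one lay below (14.6%). In the WT step 46 rose and 3 fell (2.56% and 4.55% of all genes, 7.11% together), and in the HET step 74 rose and 10 fell (6.87% and 10.4%). Without numbers 8 and 15 it was 65 and 10 in WT (9.36% and 12.1%). In HET it was then 84 and 12 (17.6% and 18.2%). Of the 74 genes that rose in WT or HET, the KO step called 58. For none of the 117 did the difference between the KO step and the WT or HET step pass (edgeR), with or without numbers 8 and 15; with limma voom Cd24a and Cd9 were among those that passed in at least 1 comparison. Of the other 19 genes, 11 are listed in MEP only (among them Sox6, Aqp1, Cd36, Tmod1 and Gp1bb), 1 in CMP only (Socs3), and 7 were not analysed here.

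**Figure D3:**
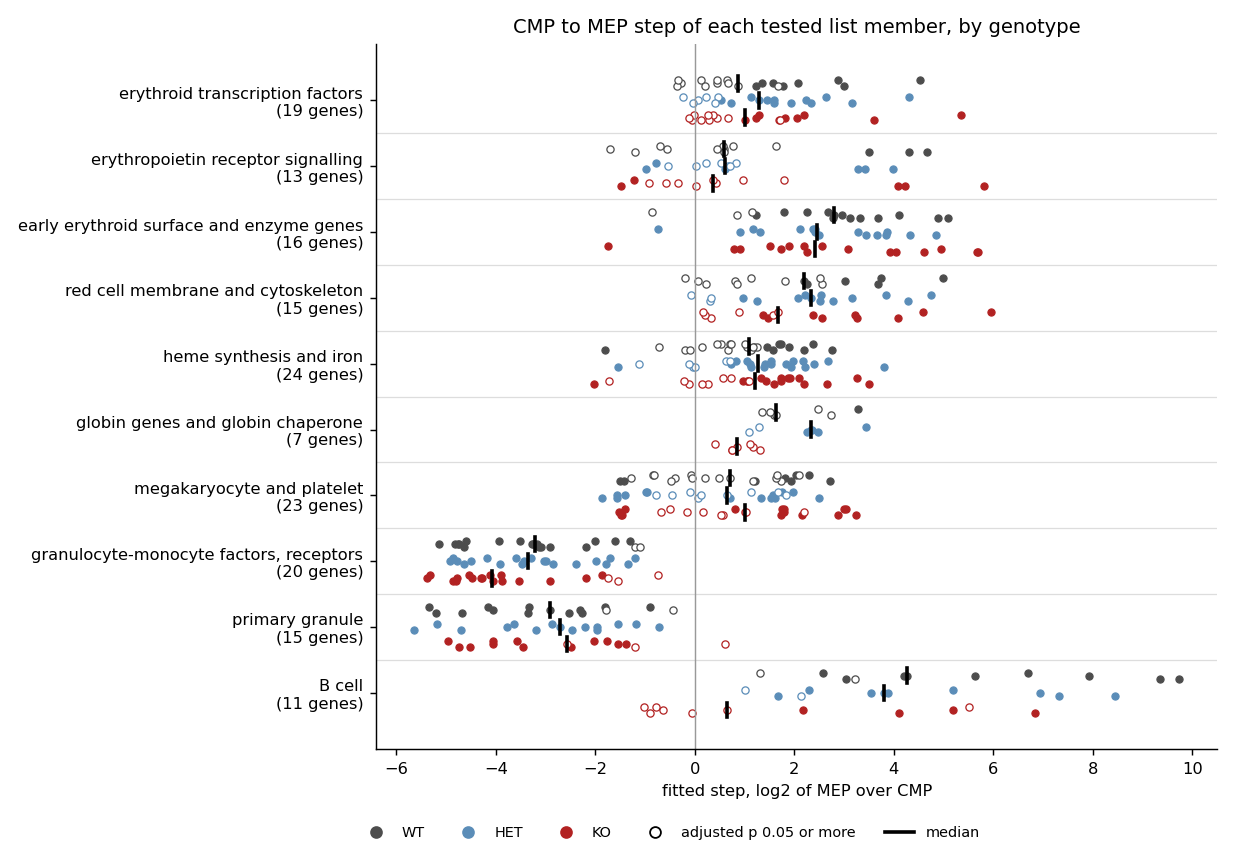
Each point is a tested member of a list, placed by its fitted step (x axis, log2 of MEP over CMP) in WT, HET and KO; filled points passed and bars are medians. In the KO the early erythroid genes lie right of 0 except Eng, all 7 globin points are open, and the B cell median is 0.65 against 4.26 in WT and 3.81 in HET.

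Among the 61 that rose, Ermap, Sphk1 and Klf1 had the largest KO steps of those with an entry in the RefSeq promoter table (GRCm38.p6). Their upstream stretches are shown for that reason. Atp1b2 and Car1 rose by more than Klf1 and have no entry there. Each ends at the first annotated exon, read 5′ to 3′ on the gene's strand, and capitals mark matches on either strand to a CACCC-type motif (CCNCNCCC), which KLF factors bind, or to a GATA motif (TGATAA, which reads TTATCA on the other strand).
Ermap, chr4:119190012-119190245, minus strand: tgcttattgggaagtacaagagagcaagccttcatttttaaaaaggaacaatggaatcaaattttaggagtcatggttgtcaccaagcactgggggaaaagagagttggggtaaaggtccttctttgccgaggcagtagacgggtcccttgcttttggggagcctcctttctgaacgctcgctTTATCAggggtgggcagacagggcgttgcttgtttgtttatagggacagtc
Sphk1, chr11:116530850-116530924, plus strand: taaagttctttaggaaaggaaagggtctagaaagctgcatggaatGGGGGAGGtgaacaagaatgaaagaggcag
Klf1, chr8:84901732-84901927, plus strand: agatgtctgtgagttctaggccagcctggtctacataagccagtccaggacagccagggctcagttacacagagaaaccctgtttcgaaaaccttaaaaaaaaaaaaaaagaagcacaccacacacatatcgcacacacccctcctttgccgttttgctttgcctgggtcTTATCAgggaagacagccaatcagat
In the 250 bases before each RefSeq start, searched on both strands, Sphk1 held 2 matches to CCNCNCCC, 1 of them past the printed stretch. Ermap and Klf1 each held 1 match to TGATAA, a form added to the search after the sequences were seen. The letters AGATAA, the other form that GATA factors bind, and CCGGAA, an ETS motif, are not in these 3 windows. Among all 32851 windows of the RefSeq table CCNCNCCC was in 45.9%, TGATAA in 7.94%, AGATAA in 9.99% and CCGGAA in 12.0%. Counted by gene, with a match in any of its windows, the shares over 27025 genes were 48.5%, 9.21%, 11.4% and 13.6%. The programme counts that follow are by gene. Of the 44 programme genes that rose and had an entry, 29 held CCNCNCCC, 10 TGATAA, 8 AGATAA and 9 CCGGAA, beside 31, 6, 7 and 3 of the 40 that did not rise. A match is a description of letters, not of binding.

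Of 19 erythroid transcription factors tested, 9 rose in the KO step and none fell (6.44% and 10.8% of all genes). Klf1 and Gata1 were among the 9. Klf1, which switches on the adult globin and membrane genes, read 3.59, 7.47, 3.70 and 11.8 CPM in KO CMP 6, 11, 13 and 15 and 131, 180.1, 158 and 844 CPM in the MEP of the same numbers. All 4 MEP libraries lie far above all 4 CMP libraries, and number 15 is the highest in both. The step was 5.35 ± 0.60 (SE, 4 pairs; adjusted p = 8.35e-06), beside 4.53 ± 0.69 in WT and 4.31 ± 0.44 in HET. Gata1, on chromosome X (7959260 to 7978071), read 17.0, 23.3, 11.1 and 32.9 CPM in CMP and 186, 198, 203 and 448 CPM in MEP. It rose by 3.61 ± 0.47 (adjusted p = 3.82e-05), and the groups do not overlap. Against WT the difference of its steps was 0.61, with a 95% interval of -0.82 to 2.04, and against HET 0.46 (-0.72 to 1.64).

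Tal1, the partner of GATA1 on erythroid enhancers, rose by 1.81 ± 0.21, from 19.61 to 27.2 CPM in CMP to 71.2 to 89.4 CPM in MEP, with no overlap. Gfi1b, a repressor needed in both MEP lineages, rose by 2.19 ± 0.33, from 17.4 to 24.8 CPM to 76.7 to 125 CPM. Zfpm1 (FOG1, the GATA1 cofactor; 2.06), Klf3 (1.70), Lmo2 (1.29), Bcl11a (1.24) and E2f2 (1.01) rose too. The 4 members that passed in the HET step and not in the KO step were Trim10 at 1.72, E2f4 at 0.66, Ldb1 at 0.13 and Ikzf1 at -0.11. Their HET steps were 2.34, 1.29, 0.74 and 0.53. Gata2, Nfe2, Myb, Foxo3, Zbtb7a and Cbfa2t3 had KO steps between -0.06 and 0.46 and passed no test in the fit of all 28 libraries. Without numbers 8 and 15 the KO step called 11 rises among the 19 (14.2% of all genes). The HET step then called 14 rises and 1 fall (17.6% and 18.2% of all genes), so some of these genes did pass in HET there.

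**Figure D4:**
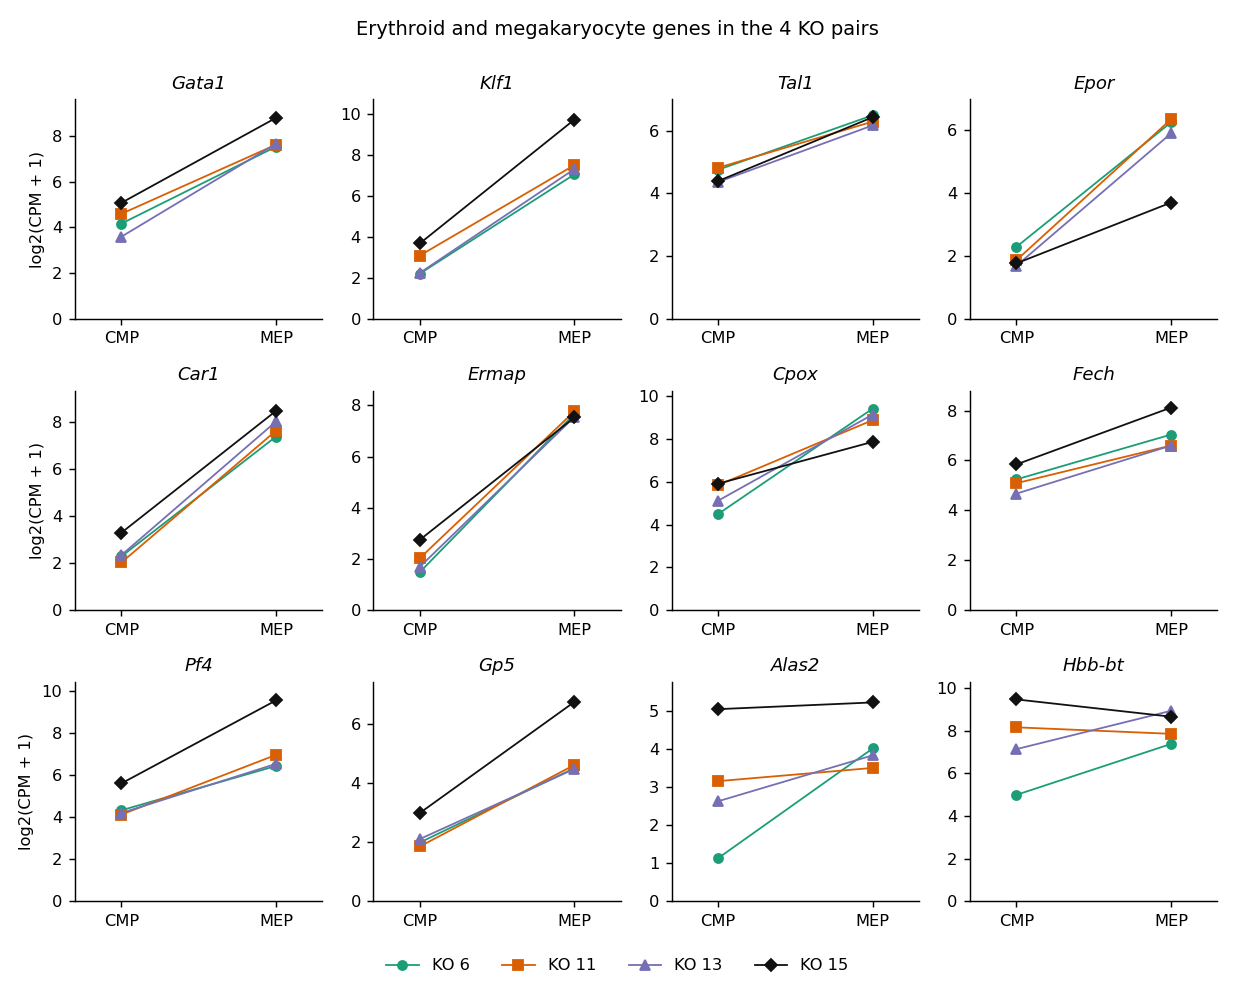
Each line joins the CMP and the MEP library of 1 KO number, with the level as log2(CPM + 1) on the y axis, which starts at 0. Lines rise in all 4 pairs for Gata1, Klf1, Tal1, Epor, Car1, Ermap, Cpox, Fech, Pf4, Gp5 and Alas2. For Hbb-bt they cross, and numbers 11 and 15 go down.

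Erythropoietin signalling rose at the receptor and at 2 of its downstream genes. In this list 3 of 13 rose and 2 fell, beside 6.44% and 10.8% of all genes. Epor read 3.88, 2.64, 2.22 and 2.39 CPM in KO CMP and 75.4, 80.8, 58.9 and 12.0 CPM in KO MEP. Number 15 is the lowest MEP value, yet above every CMP value. The step was 4.08 ± 0.44 (adjusted p = 5.17e-06), beside 3.49 in WT and 3.42 in HET. Sphk1, the kinase that makes sphingosine-1-phosphate, went from 0.184 to 0.879 CPM to 23.5, 30.7, 26.2 and 56.1 CPM, a step of 5.81 ± 0.76, or 5.12 without numbers 8 and 15. Socs2, a feedback inhibitor of cytokine receptors, rose by 4.22 ± 0.90. Its MEP values were 6.06, 11.3, 10.3 and 79.8 CPM. Number 15 is far the highest, and leaving out that number and 8 gave 3.14, and leaving out number 6 gave 4.91. The kinase Lyn fell by 1.23 and the phosphatase Ptpn6 (SHP-1) by 1.48. Of 13 tested, the other 8, with Jak2 (0.43), Stat5a (0.37) and Stat5b (0.03) among them, did not pass. Stat5b rose in the HET step, at 0.60.

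Early erythroid surface and enzyme genes were all called in KO: 15 of the 16 tested rose and 1 fell (6.44% and 10.8% of all genes). Car1 (carbonic anhydrase 1) read 3.88, 3.08, 4.07 and 8.83 CPM in KO CMP and 167, 199, 261 and 358 CPM in KO MEP, a step of 5.66 ± 0.44 (adjusted p = 2.12e-07). Every MEP library is far above every CMP library. The WT and HET steps were 4.90 and 4.86. Atp1b2, a sodium pump subunit, rose by 5.70 ± 0.49, from 0.740 to 3.30 CPM to 82.7 to 158 CPM. Further rises were seen for Tspo2 (4.94), the biliverdin reductase Blvrb (4.60), the blood group gene Rhd (4.05), the claudin Cldn13 (3.93), Car2 (3.09), Tspan33 (2.56), the transferrin receptors Tfr2 (2.25) and Tfrc (2.20) and the nuclear protein Hemgn (1.89). Without number 11 the Rhd step was 4.68. The lowest of the rises were Cd24a (1.73), Mns1 (1.51), the peroxiredoxin Prdx2 (0.91) and Minpp1 (0.80). Cd24a went from 161 to 272 CPM to 482 to 778 CPM, and its steps in WT and HET were 2.80 and 2.41; the difference from WT was -1.07 (95% interval -1.87 to -0.26, adjusted p = 0.749). Eng, a TGF-beta coreceptor, fell by 1.75.

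Red cell membrane genes rose in part: 9 of 15 rose and none fell (6.44% and 10.8% of all genes). Ermap, an erythroid membrane protein of the butyrophilin family, read 1.79, 3.08, 2.22 and 5.70 CPM in KO CMP and 203, 217, 186 and 183 CPM in KO MEP. The 4 MEP libraries lie close together. Its step of 5.96 ± 0.75 (adjusted p = 2.45e-05) was the largest of the 117 programme genes, and the steps in WT and HET were 4.99 and 4.75. Ank1 (ankyrin) rose by 4.58 ± 0.88, with 93.5, 105, 102 and 30.5 CPM in MEP, and Rhag, the Rh-associated glycoprotein, by 4.07 ± 0.65. These steps were 5.33 and 4.68 with numbers 8 and 15 left out. The spectrin Sptb (2.37), the Kell proteins Kel (3.22) and Xk (1.47), and the glycophorin Gypc (1.37) were among the others that rose.

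The band 3 anion exchanger Slc4a1, a late gene of this list, differed widely between KO libraries. It read 0, 16.5, 4.07 and 37.3 CPM in CMP and 25.4, 13.2, 27.4 and 6.85 CPM in MEP, so the groups overlap. Its step of 0.88 ± 0.99 did not pass (adjusted p = 0.591), beside a HET step of 2.21 that did. Dmtn (dematin, 1.66) and Epb42 (protein 4.2, 1.58) likewise passed in HET, at 2.53 and 2.08, and not in KO. The Dmtn step did pass, at 2.73, once numbers 8 and 15 were left out. Epb41, Slc2a1 and Cd47 had KO steps of 0.17 to 0.32.

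Heme synthesis rose along most of its enzymes. Of 24 tested genes 15 rose and 1 fell (6.44% and 10.8% of all genes). Cpox (coproporphyrinogen oxidase) read 21.52, 56.5, 33.7 and 59.2 CPM in KO CMP and 687, 472, 566 and 233 CPM in KO MEP. It rose by 3.51 ± 0.47 (adjusted p = 5.08e-05), and no libraries overlap. Alad, which joins the first pair of precursors into a pyrrole, went from 25.0 to 42.7 CPM to 156, 169, 209 and 1332 CPM. Number 15 is far above the other MEP libraries; the step was 3.26 ± 0.55, and 2.72 without numbers 8 and 15. Fech (ferrochelatase, which inserts iron) rose by 1.91 ± 0.30, Urod by 1.87, Ppox by 1.05 and Uros by 0.96. Of the transporters and iron handlers, Slc40a1 (ferroportin, 2.66), Slc11a2 (the iron importer DMT1, 2.19), Glrx5 (2.10), Tmem14c (1.74), Steap3 (1.73), Abcb10 (1.42), Abcb6 (1.33) and the glycine carrier Slc25a38 (1.07) rose.

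The 2 enzymes that open the pathway went apart. Alas1, the housekeeping form, fell by 2.02 ± 0.31, from 45.7 to 91.4 CPM to 10.6 to 23.1 CPM. Alas2, the erythroid form, read 1.195, 7.91, 5.18 and 32.0 CPM in KO CMP and 15.1, 10.3, 13.2 and 36.3 CPM in KO MEP. Each pair points up, yet the groups overlap. Its step of 1.08 ± 0.58 did not pass (adjusted p = 0.225), and without numbers 8 and 15 it was 1.37 (adjusted p = 0.191). The HET step was 2.40 (adjusted p = 6.28e-04) and the WT step 1.25 (adjusted p = 0.375). The difference between KO and HET was -1.31, with a 95% interval of -2.86 to 0.23 (adjusted p = 0.855). Slc25a37 (mitoferrin 1) had steps of 0.27 in KO and 1.13 in HET, of which only HET passed. Fth1 and Ftl1, the ferritin chains, had KO steps of 0.56 and 0.15.

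Of 7 globin genes tested none passed in the KO step, 1 rose in WT and 5 rose in HET, where the shares of all genes that rose were 6.44%, 2.56% and 6.87%. With 7 genes, a count of 0 lies near the share over all genes. The median step of the 7 was 0.85 in KO, 1.63 in WT and 2.34 in HET. Hbb-bt, an adult beta chain, read 30.8, 283, 139 and 702 CPM in KO CMP and 165, 229, 485 and 401 CPM in KO MEP. It was higher in MEP for numbers 6 and 13 and lower for 11 and 15, and the step was 0.75 ± 0.58 (adjusted p = 0.41). Hba-a1 read 25.1, 232, 128 and 783 CPM in CMP and 174, 265, 436 and 1219.7 CPM in MEP. All 4 pairs point up, yet the groups overlap, and its step of 1.32 ± 0.56 did not pass (adjusted p = 0.123). The HET steps were 2.25 for Hbb-bt and 2.47 for Hba-a1, both called, and the WT steps 1.63 and 1.60, not called.

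The other globins gave KO steps of 1.16 (Hba-a2), 1.11 (Hbb-bh1), 0.85 (Hbb-bs), 0.75 (Hbb-y) and 0.41 (Hba-x), all with overlapping libraries. Differences between the KO and HET steps were negative for all 7 tested globins, from -2.32 to -0.34. Those between the KO and WT steps were negative too, from -2.16 to -0.19, and none passed in either comparison. The adult genes Hba-a1 and Hbb-bt stood at -1.15 (95% interval -2.65 to 0.34) and -1.50 (-3.04 to 0.04) against HET. They shrank to -0.57 and -0.66 without numbers 8 and 15. Hbb-bt in MEP ranged from 676 to 5064 CPM in WT and from 305 to 3860.3 CPM in HET. Hba-x and Hbb-y changed sign without number 11, to -0.81 and -0.17. The adult alpha and beta copies are nearly identical, so reads may be split or lost between them.

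Among 23 megakaryocyte and platelet genes 10 rose and 4 fell in KO, beside 6.44% and 10.8% of all genes. WT had 6 rises and 2 falls (2.56% and 4.55% of all genes), and HET 8 and 6 (6.87% and 10.4%). Without numbers 8 and 15 KO had 12 and 5 (14.2% and 16.5%). WT then had 6 and 5 (9.36% and 12.1%), and HET 11 and 6 (17.6% and 18.2%). Pf4, the platelet chemokine CXCL4, read 19.13, 16.5, 17.4 and 47.8 CPM in KO CMP and 85.6, 124, 91.9 and 750.4 CPM in KO MEP. All MEP libraries lie above all CMP libraries, and number 15 is far the highest. The step was 2.88 ± 0.47 (adjusted p = 3.10e-04), and 2.51 without numbers 8 and 15; it was 1.74 in WT and 1.61 in HET. Gp5, of the von Willebrand factor receptor, rose by 3.23 ± 0.37, from 2.64 to 6.99 CPM to 21.97, 23.7, 21.49 and 108 CPM. Its partner Gp1ba rose by 1.76, the platelet granule protein Treml1 by 2.16, the thrombin receptors F2r and F2rl2 by 1.79 and 1.74, and the secretion GTPase Rab27b by 1.80.

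The 3 members that rose in KO and in neither WT nor HET were Vwf (von Willebrand factor, 3.03), Nrgn (3.00) and the tetraspanin Cd9 (0.81), picked out after their values were seen. Vwf read 5.38, 0.879, 2.22 and 6.07 CPM in CMP and 28.03, 24.7, 18.8 and 34.6 CPM in MEP. Its steps in WT and HET were 2.09 and 1.67, and no difference passed. Nrgn rests on number 15 (49.6 CPM in MEP, against 1.89 to 4.07 CPM in the others): its step was 1.83 without that number and did not pass, and 3.71 without number 6. Without number 11 neither Vwf (2.61) nor Cd9 (0.75) passed. Fli1, the ETS factor of megakaryocytes, fell by 1.52, and Rgs18, Plek and Mef2c fell by 1.49, 1.47 and 1.40. Itga2b (CD41), 23.5 to 39.9 CPM in CMP and 38.7 to 55.3 CPM in MEP, had a step of 0.57 (adjusted p = 0.156), called at 0.77 without numbers 8 and 15.

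Among all genes, the 10 largest named rises in the KO step were Igll1 (6.84), Sowaha (6.28), Gml2 (6.27), Abcg4 (6.05), Ermap, Podxl (5.90), Slc38a5 (5.87), Sphk1, Atp1b2 and Foxd4. Podxl (podocalyxin, a sialomucin) went from 0.370 to 1.10 CPM to 63.6, 67.8, 58.3 and 32.2 CPM, with steps of 3.58 in WT and 3.43 in HET. Slc38a5, an amino acid transporter, went from 1.85 to 4.97 CPM to 134, 161, 167 and 322 CPM, with steps of 4.93 and 5.18. Sowaha, Gml2 and Abcg4 had at most 0.220 CPM in any KO CMP library, so their ratios are imprecise: without number 15 Abcg4 was at 7.64, Sowaha at 5.67 and Igll1 at 6.24, and Gml2 no longer passed. Without number 11 Sowaha was at 7.90. Foxd4 is a single-library value. It had no read in KO CMP, 319 CPM in MEP 15 and at most 0.379 CPM in the other 3 MEP libraries. Over the group this is at least 335-fold higher than a floor of 3 reads, and the fitted value is no bound. One HET CMP library also held 325 CPM of it.

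Genes of the other branch fell. Of 20 granulocyte-monocyte factors and receptors 17 fell and none rose in KO, against 18 and none in WT and 20 and none in HET. The shares of all genes that fell were 10.8% in KO, 4.55% in WT and 10.4% in HET. Spi1 (PU.1) went from 133, 133, 153 and 201 CPM to 10.98, 6.78, 14.7 and 26.7 CPM, a step of -3.53 ± 0.45 (adjusted p = 2.83e-05). Csf1r, the M-CSF receptor, fell by 5.39, the chemokine receptor Ccr2 by 5.33, Irf8 by 4.85 and Csf3r, the G-CSF receptor, by 4.49. The 10 largest named falls were Cyp4f18, Stfa1, Hp, Adgre1, Clec5a, F13a1, Csf1r, Ccr2, Ifi204 and Gapt, from -6.12 to -5.27; without number 15 Hp was at -6.62 and Stfa1 at -6.52. Of 15 primary granule genes 12 fell, again beside 10.8% of all genes. Mpo, the main granule peroxidase, went from 2451 to 3784 CPM to 89.4, 63.0, 121 and 370.1 CPM, with a step of -4.53. Of 10 secondary and tertiary granule genes 5 fell and none rose (10.8% and 6.44% of all genes). Cebpa is listed in CMP only and was not tested. Of 6 sorting antigens 5 fell, and Kit had a step of -0.19. The sort selected MEP for low levels of the antigens that separate the gates. Falls of those genes were therefore built in and are no separate result. Members of this list are also counted in the lists of granulocyte-monocyte and of stem genes, so part of the falls there is likewise set by the gates.

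Stem and multipotent progenitor genes mostly fell where they were called: of 25 tested 8 fell and 3 rose, against 10.8% and 6.44% of all genes. Hmga2, a fetal stem cell factor, fell by 2.92 and Angpt1 by 2.25, while Slamf1 (CD150) rose by 2.79, Mllt3 by 2.03 and Lmo2 by 1.29. Of 36 DNA replication genes 3 rose, near the share over all genes, the S phase cyclin Ccne1 (2.15), the nucleotide reductase subunit Rrm2 (1.16) and Orc6 (0.73). Leaving out numbers 8 and 15 gave 13 rises and 1 fall, against 14.2% and 16.5% of all genes in that fit. Ccna2 (0.50) alone of 30 mitosis genes passed, a count below the 6.44% of all genes that rose. It no longer passed when any 1 of the 4 KO numbers was left out. Of 24 BAF subunits Phf10 rose by 1.23 and Ss18 fell by 0.77, both counts below the shares over all genes (6.44% and 10.8%). The fall of Ss18 was not called without number 13 or without number 15.

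Few steps differed with the genotype. Against WT 3 genes passed (0.0257% of 11659), 2 with a higher KO step (0.0172%) and 1 with a lower one (0.00858%). Against HET 5 passed (0.0429%), 3 higher (0.0257%) and 2 lower (0.0172%). At an unadjusted p under 0.05 the counts were 617 and 703 of 11659 genes. This is not far above the share of 0.05 that such a cut-off calls when no step differs. Without M34 none passed in either comparison. Il7r, the receptor of interleukin 7 on lymphoid precursors (chromosome 15, 9505788 to 9530176), rose by 4.26 in WT and 3.54 in HET and had a step of -0.63 ± 0.45 in KO. It read 20.02, 18.02, 19.98 and 17.3 CPM in KO CMP and 25.8, 11.5, 12.95 and 4.79 CPM in KO MEP. In WT it ran from 2.44 to 4.71 CPM in CMP and from 32.9 to 132 CPM in MEP, so the KO was higher in CMP and lower in MEP. The difference from WT was -4.90 (95% interval -6.43 to -3.36, adjusted p = 0.0247) and from HET -4.18 (-5.42 to -2.94, adjusted p = 0.0123). Over 27 alternatives the difference from WT stayed between -5.56 and -4.25 and passed in 18 (adjusted p from 3.34e-07 to 0.417). That from HET passed in 16 of 26 (1.84e-07 to 1).

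Ifitm1, an interferon-induced membrane protein expressed in early embryonic and stem cells, fell by 3.41 in WT and 2.20 in HET and had a KO step of 0.63 ± 0.37 (adjusted p = 0.263). It read 125, 177, 172 and 399 CPM in KO CMP and 118, 172, 244 and 1901 CPM in KO MEP. In WT CMP it ran from 49.98 to 113 CPM and in WT MEP from 5.25 to 8.89 CPM, below all KO libraries. The difference from WT was 4.04 (2.77 to 5.31, adjusted p = 0.0247), and from HET 2.83 (1.83 to 3.82, adjusted p = 0.0425). With numbers 8 and 15 left out they were 3.54 (adjusted p = 8.04e-06) and 2.53 (adjusted p = 2.82e-05). They passed in 17 of 27 and 9 of 26 alternatives, with adjusted p from 1.67e-07 to 0.339 and from 1.84e-07 to 1.

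Slc22a4, a carrier of ergothioneine, rose more in KO, by 3.01 ± 0.30, than in WT (0.32) or HET (0.86). It read 0.897, 2.20, 2.59 and 4.41 CPM in KO CMP and 12.1, 15.8, 15.01 and 39.4 CPM in KO MEP. WT libraries ran from 9.51 to 10.8 CPM in CMP and from 10.5 to 14.7 CPM in MEP, so the genotypes lie apart in CMP and not in MEP. The differences were 2.69 (1.79 to 3.59, adjusted p = 0.0334) and 2.15 (1.39 to 2.91, adjusted p = 0.0425). They passed in 14 of 27 and 9 of 26 alternatives, with adjusted p from 1.95e-04 to 0.417 and from 9.65e-04 to 1. Without numbers 8 and 15 the difference from WT still passed, at 2.59 (adjusted p = 0.0132), and that from HET, at 2.06, did not (adjusted p = 0.0546). Foxd4, with its single libraries, was called against HET. Trbc2, a T cell receptor constant gene, rose in WT (3.64) and HET (3.22) and had a KO step of 0.57. Its difference from HET was -2.65 (adjusted p = 0.0389), passed in 11 of 26 alternatives (6.37e-04 to 1), and without numbers 8 and 15 it was -2.42 and did not pass (adjusted p = 0.0539).

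**Figure D5:**
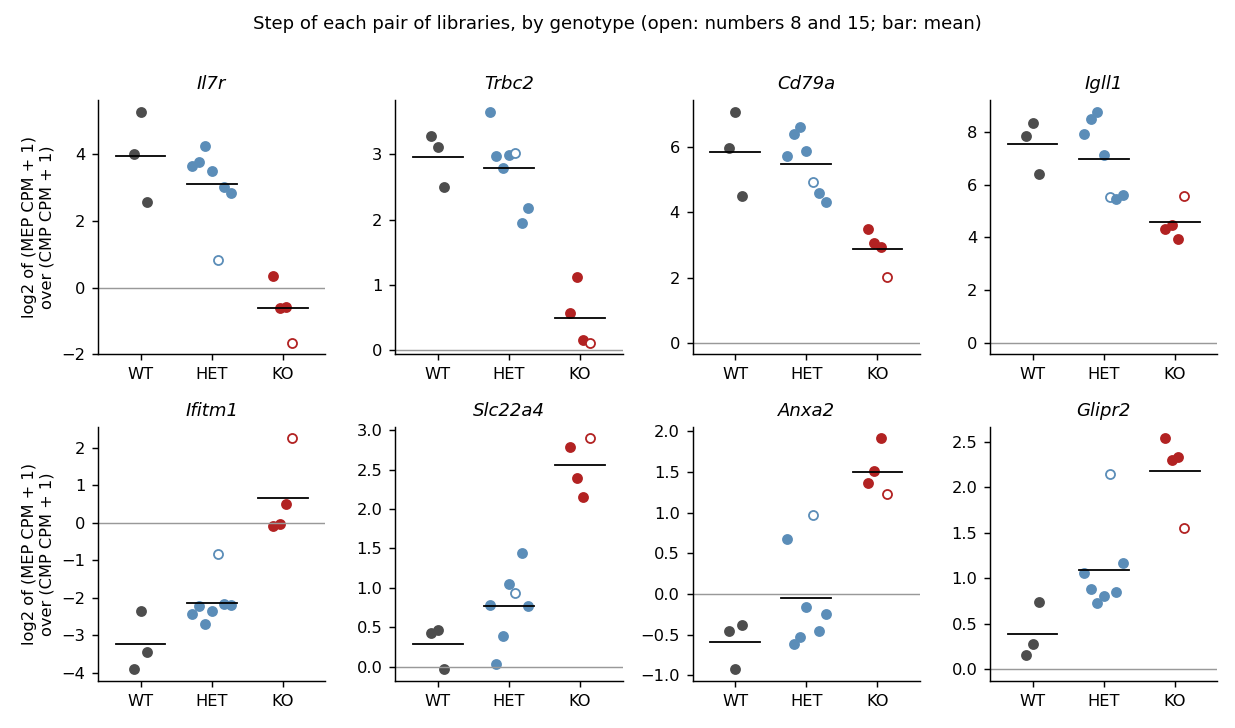
Each point is the log2 ratio of MEP over CMP (CPM + 1) in 1 pair of libraries, bars are means, and numbers 8 and 15 are open. The KO points of Il7r and Trbc2 lie below all WT and HET points, and those of Ifitm1, Slc22a4 and Anxa2 lie above all WT and HET points.

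Without numbers 8 and 15 the step differed from WT in 25 genes (0.218%; 12 higher, 0.105%, and 13 lower, 0.113%) and from HET in 7 (0.061%; 5 higher, 0.0436%, and 2 lower, 0.0174%). Ifitm1, Anxa2, Ifitm3, Glipr2, Stom, Il7r and Dock10 were called in both comparisons and were picked out after their values were seen. Anxa2, a calcium-dependent membrane-binding protein, read 20.6, 21.97, 17.02 and 38.99 CPM in KO CMP and 54.5, 64.4, 66.8 and 92.8 CPM in KO MEP. It rose by 1.54 ± 0.26, while WT and HET gave -0.59 and -0.07, not called. WT CMP held 72.6 to 80.1 CPM of it, above every KO CMP library. Glipr2 rose by 2.22 in KO and 1.09 in HET, and Stom, the red cell membrane protein stomatin, by 1.24 and 0.65. The Stom rise in KO was not called without number 11 (1.04, adjusted p = 0.0584) or without number 6 (0.97, adjusted p = 0.0595). The differences of these genes passed in few alternatives: from WT in 7 of 27 for Anxa2, 6 for Glipr2 and for Dock10, 3 for Ifitm3 and 2 for Stom, and from HET in 5 of 26 for Anxa2 and for Dock10, 3 for Glipr2 and for Ifitm3 and 2 for Stom. Among the genes with a larger fall in KO were Irf8 and Itgam (CD11b), with differences from WT of -2.18 and -2.43 in that fit; they passed in 3 and 2 of 27 alternatives.

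Fewer B cell genes rose in the KO step. Of 11 tested 4 rose in KO (6.44% of all genes), against 9 in WT (2.56%) and 9 in HET (6.87%). Without numbers 8 and 15 it was 5 (14.2%), 10 (9.36%) and 10 (17.6%). Their summed level in MEP ran from 140 to 209 CPM in KO, from 455 to 2381 CPM in WT and from 324 to 2100 CPM in HET, with no overlap, while in CMP all genotypes ran from 106 to 209 CPM. Igll1, the surrogate light chain of precursor B cells, was at 0.184 to 0.370 CPM in KO CMP and at 24.996, 25.7, 20.02 and 54.8 CPM in KO MEP, beside 84.6 to 496 CPM in WT MEP. Cd79a went from 0, 0.439, 0.370 and 0 CPM to 10.2, 11.01, 9.42 and 3.08 CPM, beside 29.0 to 134 CPM in WT MEP. The heavy chain Ighm had steps of -0.77 in KO, 2.58 in WT and 2.30 in HET. Il7r was the only list member whose difference passed; those of Blnk (-4.99, adjusted p = 0.169) and Ighm (-3.36, adjusted p = 0.279) from WT did not. The lineage stain included B220. In bulk libraries fewer cells of a type and less RNA per cell cannot be told apart. Of the list, Vpreb1, Vpreb2, Vpreb3 and Rag1 are listed in MEP only.

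Other cell types were measured by their marker sums. Hepatocyte genes summed to 157 to 309 CPM in KO CMP and 193 to 1127 CPM in KO MEP, and to 633 to 5212 CPM in WT MEP and 318 to 5470 CPM in HET MEP. Of 18 tested, Ttr alone rose in KO (2.54), near the 6.44% share over all genes. None rose in WT (2.56% of all genes) and 9 in HET (6.87%). The Ttr call was lost without number 6, 13 or 15. The median step of the 18 was 1.34 in KO, 0.77 in WT and 1.70 in HET, beside 1.29, 1.24 and 1.39 for the programme genes. Macrophage genes summed to 40.4 to 57.7 CPM in KO MEP, 64.3 to 182 CPM in WT MEP and 36.2 to 90.8 CPM in HET MEP, a range that holds all 4 KO libraries. Basophil and mast cell genes went from 218 to 269 CPM in KO CMP to 9.09 to 23.3 CPM in KO MEP. Eosinophil genes went from 29.4 to 300 CPM to 3.56 to 63.7 CPM, and endothelial and stromal genes from 83.0 to 104 CPM to 24.6 to 32.2 CPM. Their part in the steps was not tested.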

How the data were processed

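The values are raw read counts per gene as deposited. The submitters' processing notes name featureCounts and the build mm10 (GRCm38); no version, aligner or annotation is given in the sources used here. Per the labels, cDNA was made by Smart-seq2, which marks neither strand nor molecules, so intervals cover the spread of libraries only and genes that overlap cannot be separated. Symbols and positions came from GENCODE M21. Both tables were joined on the 11915 shared genes; the smallest gene totals were 7 reads in CMP and 11 in MEP, so rows near the floor may be in 1 table only. All 28 libraries were fitted with edgeR 4.0.16 (R 4.3.3; TMM, filterByExpr with minimum count 10, robust quasi-likelihood F test) with the number as a block and 1 step per genotype, leaving 11 residual degrees of freedom, and Benjamini-Hochberg adjustment. Intervals use the fit's t quantiles.

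The shared title number was taken as the pair. Checked on the data, deviations from group means correlated within all 4 KO pairs (r = 0.15 to 0.45) and within 12 of 14 pairs in all (over 0.1). The own number was the best match in 11 of 14, the 4 KO pairs among them. HET 8 and HET 9 had r = -0.093 and -0.086 with their own number, against up to 0.17 and 0.41 with another. Expression of Xist and Ddx3y matched in 14 of 14, but Xist was high in KO 6, 11 and 13 alike, so it cannot tell these apart. The members and the gene lists were chosen with earlier results of these data known. Named genes are Smarcd2, the 10 largest rises and falls (mean log2 CPM of at least 1, predicted genes passed over), up to 8 members of each of the 7 programme lists and 4 of each other list by p, up to 4 programme members per list called only in WT or HET, the differences that passed, and 8 key regulators; other list members are named to account for the list, and were chosen after their values were seen. Alternatives were other scaling, filters, covariates, DESeq2 1.42.0, limma 3.58.1 voom, left-out libraries and no block. Scripts were tested on simulated data. Some members counted in the lists are not reported here by name.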

Additional observations from a re-analysis of the deposited data

Results flagged for a closer look

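In groups of 4 to 10 libraries, 1 value lay far from the rest in these cases (chance flags about 1 in 20 groups; 16 of 140 named genes were flagged, 11 of them for number 15). The TMM factor was 0.620 in CMP HET 8, 0.594 in MEP KO 15 and 0.751 in MEP HET 8, and CMP HET 8 also held 48.7% satellite reads and only 1577073 gene reads. By pair, as log2 of (MEP CPM + 1) over (CMP CPM + 1), number 15 stood apart from the other KO pairs for Alad (4.93), Apoe (2.49), Cdk1 (-1.37), Fli1 (-2.54), Foxd4 (8.32), Lyz2 (-3.06), Mef2c (-1.83), Prc1 (-2.49), Ptpn6 (-0.72), Sphk1 (5.59) and Ss18 (-2.08). Number 11 stood apart for Cst7 (-2.95) and Prg3 (0.42), number 6 for Epx (-0.86) and Hnf4a (1.80), and number 13 for Lyve1 (2.78).

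Steps that differed between genotypes by the test of the difference were Ifitm1 (4.04 against WT and 2.83 against HET), Slc22a4 (2.69 and 2.15), Il7r (-4.90 and -4.18), Trbc2 (-2.65 against HET) and Foxd4, whose fitted 21.99 against HET comes from groups at 0 reads and 1 library each.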

How the results depend on the processing

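Over 28 alternatives the number of programme genes that rose in KO ran from 39 (without M34) to 78 (limma voom). The total called in the KO step was 2010; it was 3127 with the length index as a covariate, 5095 with limma voom, 1270 in the 8 KO libraries alone, 3517 without numbers 8 and 15, 869 without M34, and 1397 to 3537 when 1 library number was left out. For WT (299 and 530) it was 1735 with the length index, 2494 with voom, 1357 with the spike-in share, 2461 without 8 and 15, and 392 to 1473. For HET (2018) it was 3451, 4596 and 4103 with the length index, voom and without 8 and 15, and 1571 to 2688. Genes whose step differed from WT (3) were 24 with DESeq2, 10 with WT and HET pooled, 14 with the length index, 232 with voom, 25 without 8 and 15, 0 without M34, and 0 to 10. From HET (5) they were 24 with DESeq2, 11 with the length index, 356 with voom, 0 with the spike-in share, 0 without M34, 3 without satellite gene models, and 0 to 7.

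Without the replicate block the KO step called 2440 genes (1214 rose and 1226 fell, against 751 and 1259 with it; voom 2484 and 2611), WT 785 and HET 2165, and the differences 1 from WT and 3 from HET. Unblocked, Hba-x was at -0.93, Hbb-y at -0.51 and Ifitm3 at 0.070. Other reversals were Hba-x (-0.81 to 1.88 over left-out numbers), Hbb-y (-0.17 to 1.87), Slc4a1 (-0.15 to 1.99 over left-out numbers), Stat5b (-0.13 to 0.25), Smarcd2 (-0.024 with the length index, -0.076 to 0.72 over left-out numbers), Ifitm1 (-0.064 without M34) and Ikzf1 (0.12 with the length index, 0.11 with voom, 0.12 without 8 and 15, 0.17 without M34, -0.22 to 0.12 over left-out numbers). Of the other values for named genes 4011 kept direction and side of the threshold, 97 newly passed and 98 no longer passed. The cause was not tested. Low counts limit genes near 0 in CMP.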
